A study of Mus musculus with 16 samples.

Results

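Gfap, Vim, Nes, Synm and Lmna encode intermediate filament proteins found in astrocytes, and they were taken by symbol from the deposited log2 CPM table (read counts scaled to library size), in which all 5 of the 5 symbols were present among 16707 genes. RNA was measured in primary mouse astrocytes of 2 genotypes, C57BL6J wild type (WT) and Nlrx1-/- (KO), which lack the mitochondrial innate immune receptor NLRX1. Cells were taken from the brains of pups, at postnatal day 6 by the labels and the methods (a younger age stands elsewhere in the study's text), selected with beads against ACSA2, an astrocyte surface antigen, and grown in serum-free medium with heparin-binding EGF. Each of the 4 sets of pups per genotype, called litters here, gave a well with vehicle and a well with 500 ng/mL lipopolysaccharide (LPS) plus 10 ng/mL interferon gamma (IFNg) for 24 h, which gave 16 poly-A libraries. WT and KO litters were different litters. The labels tie the wells of a litter by its number. The study's text says that the WT and KO pups shared a day of birth. Whether WT and KO cultures of the same number were matched in this way is not given. Animals were pooled within a culture, and the cells grown on the plate are a selected neonatal population kept with a growth factor, not the astrocytes of an adult brain.

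Intermediate filaments are ropes of coiled-coil proteins that give a cell its mechanical strength. GFAP is the filament protein by which astrocytes are recognised, vimentin and nestin are carried by immature and reactive astrocytes, and synemin joins filaments of GFAP or vimentin and tethers them to other structures. Lamins A and C, both made from Lmna, line the inside of the nuclear envelope. A higher level of GFAP, vimentin and nestin is the textbook sign of reactive astrogliosis in injured or inflamed tissue.

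The libraries held 27259420 to 43752903 estimated read pairs. Nlrx1, the deleted gene, spans bases 44164011 to 44179896 of chromosome 9 (GRCm39, minus strand), and its transcripts were fewer but not absent in KO libraries. They stood at 4.08 to 4.44 log2 CPM in the 8 WT libraries and at 1.09 to 2.96 in the 8 KO libraries, so the genotypes did not overlap. The fitted difference was -1.70 (SE 0.24) in vehicle, with an adjusted p of 0.051 from edgeR's quasi-likelihood test, and -2.19 (SE 0.25) in LPS+IFNg, with an adjusted p of 0.0029. Of the 9 astrocyte markers listed, all 9 were in the deposited table, with a summed level of 4679 to 7301 CPM. Of 7 microglial markers only P2ry12 was in the table, at 0.0481 to 1.78 CPM, and Aif1, Cx3cr1, Tmem119, Csf1r, Itgam and Ptprc had been left out of it as low. All 8 oligodendrocyte lineage markers were present, with a summed level of 2135 to 3733 CPM.

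In the annotation, Nes and Lmna lay on the same chromosome and the other members each on a different one. In GENCODE M39 (GRCm39), Gfap spanned bases 102778159 to 102791738 of chromosome 11 (minus strand) and Vim bases 13578738 to 13587639 of chromosome 2 (plus strand). Chromosome 3 held both Nes, at bases 87878385 to 87887758 (plus strand), and Lmna, at bases 88387454 to 88417299 (minus strand). Synm spanned bases 67379908 to 67409527 of chromosome 7 (minus strand). The canonical transcripts had 9 exons for Gfap and for Vim, 4 for Nes and for Synm, and 12 for Lmna.

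In the annotation Gfap and Lmna each have transcripts with different coding ends. The common astrocyte form of GFAP is GFAP alpha, and GFAP delta, known from neural stem cells, has another end. Prelamin A has an end that is cut off during maturation, and lamin C has its own short end. The lines below give the ends of the GFAP delta and lamin C models on the coding strand of GRCm39, with lower case for the last 20 coding bases shared with the other form and capitals for coding bases of the named model alone, up to 120 of them.
Gfap-202 (capitals at chr11:102782227-102782346, minus strand, 1 exon): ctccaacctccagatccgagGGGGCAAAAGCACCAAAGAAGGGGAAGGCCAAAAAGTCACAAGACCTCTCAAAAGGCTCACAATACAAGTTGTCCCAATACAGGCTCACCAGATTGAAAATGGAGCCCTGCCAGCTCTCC
Lmna-203 (capitals at chr3:88390607-88390624, minus strand, 1 exon): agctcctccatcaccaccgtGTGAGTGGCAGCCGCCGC

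The transcripts quantified were RefSeq models, for which the files give a length and no sequence. They had 2733 and 2600 bases for Gfap and 3189 and 2086 for Lmna, and which of them carries which end was not determined, so they are named by length.

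Compared per length, as TPM (transcripts scaled to length and library size), the order in WT astrocytes was Vim, Gfap, Nes, Lmna and Synm, in all 8 WT libraries. By mean log2 CPM over all genes of the table Vim ranked 6, Gfap 85 and Nes 135, whereas Synm ranked 11330. In WT vehicle wells the level was 4306 ± 390 TPM for Vim (SD, n = 4), 1285 ± 574 for Gfap, 163 ± 27.1 for Nes, 48.8 ± 6.01 for Lmna and 2.72 ± 0.935 for Synm. Neighbours in this order did not overlap in the WT libraries. In KO libraries the order of Gfap and Nes was not fixed: Gfap was above Nes in 3 of 4 vehicle wells and in 2 of 4 stimulated wells. Vim exceeded Gfap by 2.23-fold to 20.4-fold over the 16 libraries, and Lmna exceeded Synm by 11.7-fold to 156-fold. Synm rested on 61 to 500 estimated reads a library, and the other members on at least 1419.

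**Figure D1:**
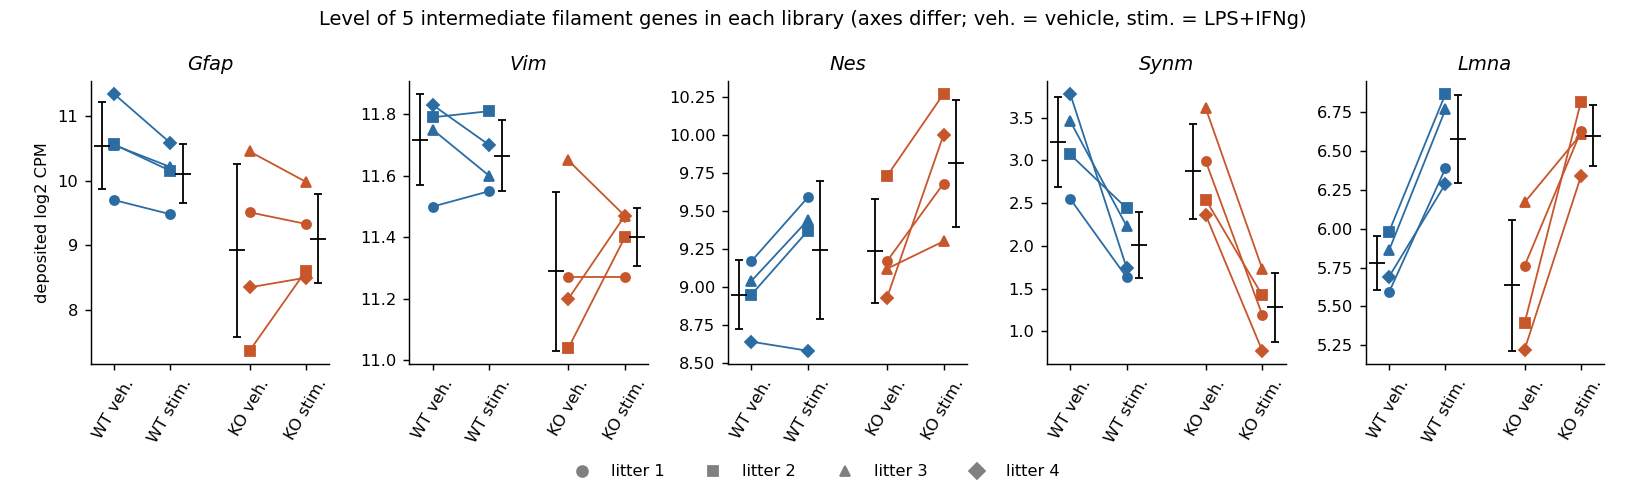
Deposited log2 CPM of the 5 genes in each of the 16 libraries, with a line joining the vehicle and the LPS+IFNg well of a litter (blue WT, orange KO) and black bars for the mean ± SD of 4 litters. Synm fell and Lmna rose in every litter, and Gfap in KO vehicle wells ran from 7.37 to 10.45.

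The stimulus moved Lmna and Synm in opposite directions in both genotypes, and Nes rose in KO astrocytes. Neither Gfap nor Vim passed the test in either genotype. Over the 16066 genes tested, 24.3% were called higher and 19.8% lower with LPS+IFNg in WT, and 25.6% were called higher and 23.9% lower in KO. Of the 5 members, 1 was called higher and 1 lower in WT, and 2 were called higher and 1 lower in KO, and with 5 genes such counts cannot be told apart from these shares. The members' median fitted change was -0.06 in WT and 0.16 in KO on the log2 scale, beside -0.01 and -0.03 over all genes. The test was edgeR's quasi-likelihood test with litter terms and Benjamini-Hochberg adjustment over all genes, with adjusted p below 0.05 as the threshold.

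Lmna carries the lamins that stiffen the nucleus. In WT litters 1 to 4 it stood at 5.59, 5.98, 5.86 and 5.69 log2 CPM in vehicle and at 6.39, 6.87, 6.77 and 6.29 in LPS+IFNg. In KO litters 1 to 4 it stood at 5.76, 5.39, 6.17 and 5.22 in vehicle and at 6.63, 6.82, 6.61 and 6.34 in LPS+IFNg. Every stimulated well was above every vehicle well of either genotype. The gain within litters was 0.60 to 0.91 in WT and 0.44 to 1.43 in KO. The fitted rise was 0.81 (SE 0.12) in WT, or 1.76-fold, with an adjusted p of 0.000374, and 0.96 (SE 0.12) in KO, or 1.94-fold, with an adjusted p of 0.000108. The difference between these responses was 0.14 (SE 0.17), with an adjusted p of 0.734. Both calls were kept in each alternative fit.

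Of the Lmna transcripts, that of 2086 bases held 72.2% to 85.8% of the gene's TPM and that of 3189 bases 9.62% to 27.8%. The share of the shorter transcript was 76.0% ± 2.18 (SD, n = 4) in WT vehicle and 79.8% ± 2.63 in WT LPS+IFNg, higher in 4 of 4 litters, for which an exact paired permutation test gave p = 0.125, the smallest it allows with 4 pairs. In KO it was 77.9% ± 4.37 and 80.5% ± 4.06, with an exact p of 0.375. Genotypes differed by 1.90 percentage points in vehicle (exact permutation p = 0.457, n = 4 litters each) and by 0.725 in LPS+IFNg (p = 0.829). No shift between the Lmna transcripts was detectable at this number of litters.

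Synm, the linker protein of the list, fell the most of the members. WT litters 1 to 4 stood at 2.55, 3.07, 3.46 and 3.78 log2 CPM in vehicle and at 1.63, 2.44, 2.23 and 1.74 in LPS+IFNg. KO litters 1 to 4 stood at 2.99, 2.54, 3.61 and 2.36 in vehicle and at 1.19, 1.42, 1.73 and 0.77 in LPS+IFNg. It fell in 8 of 8 litters, and no stimulated well of a genotype reached a vehicle well of that genotype. The fitted change was -1.22 (SE 0.22) in WT, to 0.43 of the vehicle level, with an adjusted p of 0.00108, and -1.64 (SE 0.22) in KO, to 0.32 of it, with an adjusted p of 0.00015. The difference of the responses was -0.42 (SE 0.31, adjusted p = 0.551). Salmon placed from 17.4% to 100.0% of Synm TPM in the transcript of 7866 bases and the rest chiefly in that of 6960 bases. In vehicle the longer one held 33.2% ± 7.78 in WT and 58.6% ± 27.6 in KO (SD, n = 4), and the litters did not overlap (exact permutation p = 0.0286, the smallest that 4 against 4 litters allow). That difference rests on 181 to 500 Synm reads a library, KO litter 4 was placed entirely in the longer transcript, and the difference fell from 25.4 to 11.6 percentage points without it. In LPS+IFNg the longer one held 42.0% ± 17.9 in WT and 60.7% ± 36.0 in KO (SD, n = 4; exact permutation p = 0.371), and KO litter 2, at 17.4%, lay below all WT litters.

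Nes encodes nestin, the filament protein of neural progenitors. WT litters 1 to 4 stood at 9.17, 8.95, 9.04 and 8.64 log2 CPM in vehicle and at 9.59, 9.37, 9.44 and 8.58 in LPS+IFNg. KO litters 1 to 4 stood at 9.17, 9.73, 9.12 and 8.93 in vehicle and at 9.68, 10.27, 9.30 and 10.00 in LPS+IFNg. It was higher with the stimulus in 3 of 4 WT litters and 4 of 4 KO litters, and vehicle and stimulated wells overlapped in both genotypes. The fitted rise in KO was 0.57 (SE 0.12), or 1.49-fold, with an adjusted p of 0.0022, and without litter terms the adjusted p was 0.054. The WT estimate was 0.29 (SE 0.12, adjusted p = 0.0653), and it passed the threshold under 6 alternatives, among them without WT litter 4 (0.40, adjusted p = 0.0313). The responses differed by 0.28 (SE 0.17, adjusted p = 0.443), so a difference between genotypes was not shown.

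Gfap did not respond in a single direction. WT litters 1 to 4 stood at 9.70, 10.56, 10.55 and 11.34 log2 CPM in vehicle and at 9.48, 10.15, 10.21 and 10.58 in LPS+IFNg. KO litters 1 to 4 stood at 9.51, 7.37, 10.45 and 8.35 in vehicle and at 9.33, 8.61, 9.98 and 8.50 in LPS+IFNg. All 4 WT litters were lower with the stimulus, by 0.21 to 0.76. KO litters 1 and 3 were also lower, KO litter 4 was 0.14 higher, and KO litter 2, which had the lowest vehicle level, was 1.24 higher. The fitted change was -0.43 (SE 0.21, adjusted p = 0.118) in WT and 0.16 (SE 0.21, adjusted p = 0.564) in KO, and the responses differed by 0.59 (SE 0.30, adjusted p = 0.371). KO litter 2 decided the sign of the KO estimate: without it that estimate was -0.18 (adjusted p = 0.221). The WT estimate was still -0.43 without that litter, and it was called, with an adjusted p of 0.00497. The fit takes a gene's spread from both genotypes together.

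Vim was the steadiest member. WT litters 1 to 4 stood at 11.50, 11.79, 11.75 and 11.83 log2 CPM in vehicle and at 11.55, 11.81, 11.60 and 11.70 in LPS+IFNg. KO litters 1 to 4 stood at 11.27, 11.04, 11.65 and 11.20 in vehicle and at 11.27, 11.40, 11.47 and 11.47 in LPS+IFNg. The fitted change was -0.06 (SE 0.08, adjusted p = 0.566) in WT and 0.10 (SE 0.08, adjusted p = 0.302) in KO, each smaller than the spread between litters in vehicle. The responses differed by 0.16 (SE 0.11, adjusted p = 0.508). Of the difference between the responses, 0 genes of 16066 (0%) passed the edgeR test, 2484 had an unadjusted p below 0.05, and DESeq2 called 111 higher and 185 lower, with no member among them.

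**Figure D2:**
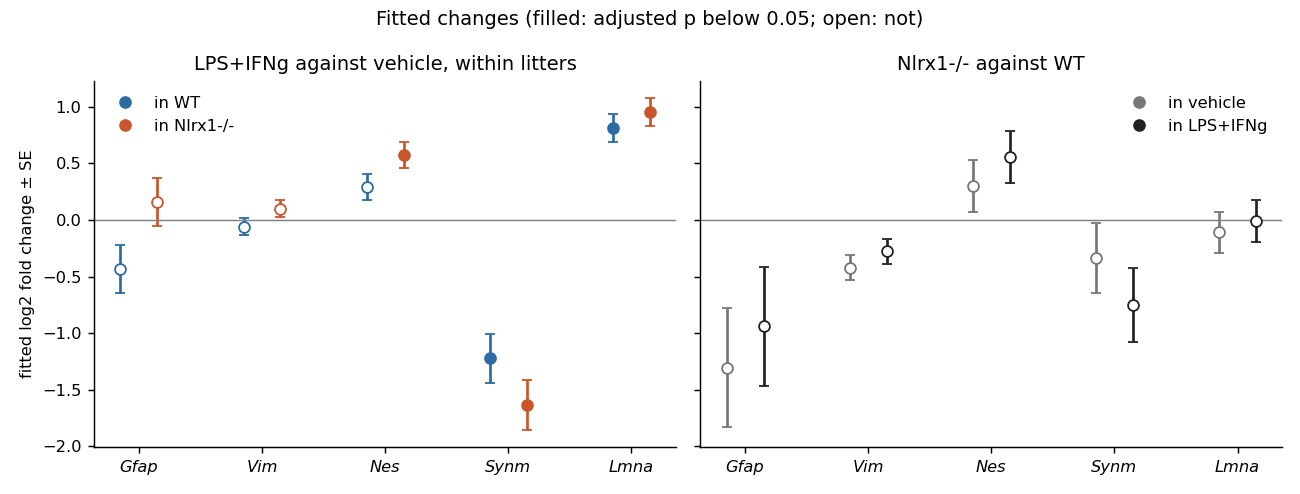
Fitted log2 fold changes ± SE of the 5 genes for the stimulus within litters (left) and for Nlrx1-/- against WT in each condition (right), filled where the adjusted p was below 0.05. The filled points are Synm and Lmna in both genotypes and Nes in KO, and no point of the genotype comparison is filled.

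Between genotypes no member passed the edgeR test in either condition. In vehicle, 0% of all genes passed the edgeR test of KO against WT, 3136 had an unadjusted p below 0.05, and DESeq2 called 455 higher and 280 lower. In LPS+IFNg, 4.72% of all genes passed, and 0 members. The members' median fitted difference was -0.34 in vehicle and -0.28 in LPS+IFNg, beside 0.00 and -0.02 over all genes.

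Gfap had the largest fitted genotype difference of the members and the widest spread. It was -1.31 (SE 0.53) in vehicle, a level 0.40 of that in WT, with an unadjusted p of 0.0255 and an adjusted p of 0.2. In LPS+IFNg it was -0.94 (SE 0.53, adjusted p = 0.253). In each condition 3 of 4 KO litters lay below all WT litters, and KO litter 3 lay within the WT range. KO vehicle wells spanned 8.5-fold and WT vehicle wells 3.1-fold. The SD of 1.34 among KO vehicle wells was above that of 99.3% of the 13709 genes with a mean of at least 1 CPM, whose median was 0.18, and the SD of 0.67 among WT vehicle wells was above that of 97.6%. Astrocyte markers moved along with Gfap among the KO vehicle wells: they summed to 4695 and 4996 CPM in KO litters 2 and 4, where Gfap was lowest, and to 6208 in KO litter 3. Oligodendrocyte lineage markers went the other way, and summed to 3733 and 3476 CPM in the same 2 litters and to 2820 in KO litter 3. Fewer cells of a type and less RNA per cell cannot be told apart in such bulk samples, and the part of these markers in the Gfap difference was not tested.

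Vim differed by -0.42 (SE 0.11) in KO vehicle wells, a level 0.75 of that in WT, with an unadjusted p of 0.00164 and an adjusted p of 0.115. DESeq2, run on the same libraries, called it lower in vehicle (-0.43, adjusted p = 0.0166). In LPS+IFNg it was -0.28 (SE 0.11, adjusted p = 0.119), and all 4 KO litters lay below all 4 WT litters, a pattern shared by 13.3% of the 16707 genes in 1 direction or the other. Nes leaned the other way, by 0.30 (SE 0.23, adjusted p = 0.488) in vehicle and 0.56 (SE 0.23, adjusted p = 0.128) in LPS+IFNg, where 3 of 4 KO litters lay above all WT litters. Synm differed by -0.34 (SE 0.31, adjusted p = 0.573) and -0.75 (SE 0.32, adjusted p = 0.143). Lmna differed by -0.11 (SE 0.18, adjusted p = 0.783) in vehicle and -0.01 (SE 0.18, adjusted p = 0.984) in LPS+IFNg.

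KO litter 3, the most like WT in Gfap, decided whether the edgeR test called some of these differences. To leave out the KO litter closest to WT in a gene widens that gene's difference. The calls that follow therefore add no evidence of a difference between genotypes. Without KO litter 3, Gfap (-1.98, adjusted p = 0.0257) and Vim (-0.55, adjusted p = 0.01) were called lower in KO vehicle wells. Without it, Vim (-0.31, adjusted p = 0.0317) and Synm (-0.94, adjusted p = 0.0457) were called lower and Nes (0.70, adjusted p = 0.0463) higher in LPS+IFNg. Its removal raised the calls over all genes too, from 0 to 587 higher and 698 lower in vehicle, and from 396 to 1451 higher and from 363 to 1838 lower in LPS+IFNg. The calls over all genes in LPS+IFNg rested on single litters: without KO litter 2 they were 7 higher and 4 lower, without KO litter 4, WT litter 2, WT litter 3 or WT litter 4 they were at most 2 in each direction, and over all litters left out they ranged from 0 to 1451 higher and from 1 to 1838 lower. KO litter 3 had the lowest Nlrx1 of the KO litters, 1.84 log2 CPM in vehicle and 1.09 in LPS+IFNg.

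The make-up of the cytoplasmic filament transcripts is the Gfap, Vim, Nes and Synm TPM of a library taken as shares of their sum. Gfap held 14.7%, 20.5%, 20.8% and 30.3% in vehicle wells of WT litters 1 to 4, and 14.9%, 4.26%, 20.7% and 7.64% in those of KO litters 1 to 4. The means were 21.6% ± 6.48 and 11.9% ± 7.38 (SD, n = 4), which differed by -9.70 percentage points, with a two-sided exact permutation p of 0.171. In LPS+IFNg the means were 17.2% ± 4.06 and 11.2% ± 5.00, with an exact p of 0.143 (n = 4 each). The Nes share was 2.94% ± 0.945 in WT and 5.44% ± 2.41 in KO vehicle wells, and 3.97% ± 1.34 and 7.26% ± 2.19 in LPS+IFNg, with an exact p of 0.0571 each (n = 4). Vim held most of the sum throughout, from 67.7% to 87.7%. The shares of 1 library add to a fixed total and are not independent of each other. No p was below 0.05, and 4 against 4 litters cannot give less than 0.0286.

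Of the Gfap transcripts, that of 2733 bases held 89.2% to 93.9% of the gene's TPM, and that of 2600 bases 6.09% to 10.8%. The share of the first was 93.4% ± 0.514 in WT and 91.4% ± 1.74 in KO vehicle wells (SD, n = 4; exact permutation p = 0.0857). In LPS+IFNg it was 92.7% ± 0.790 and 90.7% ± 1.16 (exact p = 0.0571). The libraries with the lowest Gfap level, the KO litters 2 and 4, also had the lowest shares in vehicle, 89.5% and 90.5%.

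**Figure D3:**
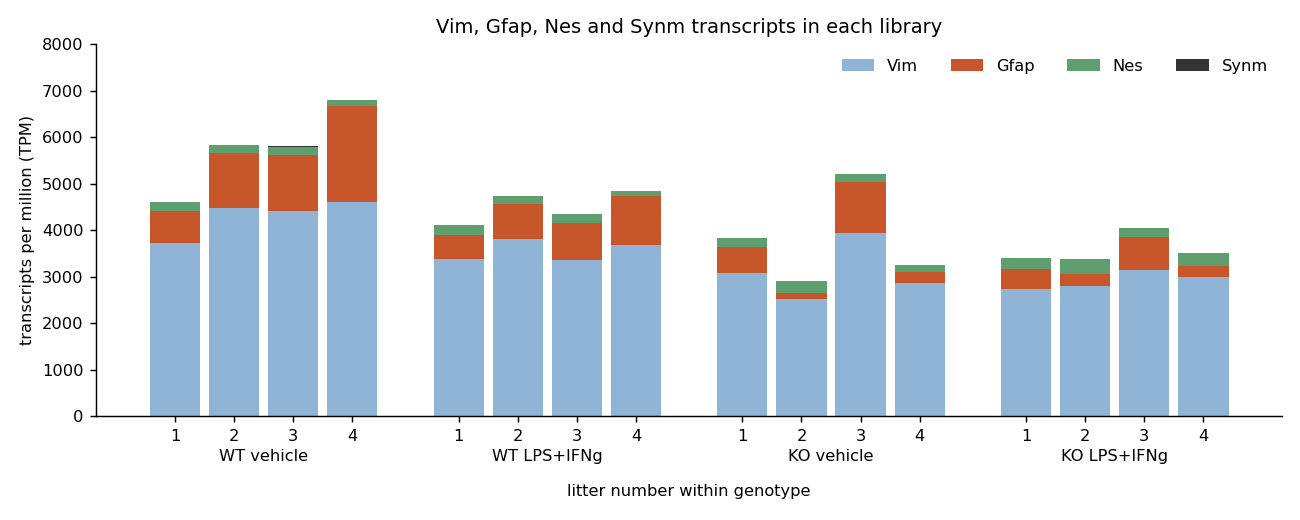
Stacked TPM of Vim, Gfap, Nes and Synm in each of the 16 libraries, with the litter number under each bar and the condition below it. Gfap is 123.8 TPM in the vehicle well of KO litter 2 and 2062 TPM in that of WT litter 4, and Synm is too low to be seen.

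Promoter windows of 250 bases before to 50 after each RefSeq start (GRCm38.p6) were searched for sequences bound by factors that the stimulus is known to activate. TTCNNNGAA, the gamma-activated site bound by STAT proteins, reads the same on both strands and was found in 8.3% of 32851 windows. Among the members it was found in Gfap only, starting 2 bases before the RefSeq start, and in none of the Vim, Nes, Synm and both Lmna windows. It is given below with 10 bases on either side in lower case and the motif in capitals, placed by exact match of the window to GRCm39. It overlaps an exon of 19 GENCODE transcripts of Gfap.
Gfap gamma-activated site (chr11:102788010-102788038, minus strand): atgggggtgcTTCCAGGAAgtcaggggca

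The NF-kB consensus does not read the same on both strands, and it was searched on the strand of the gene only. On that strand it was found in 5.89% of all windows and, among the members, in Vim, as 2 overlapping matches. Matches on the other strand were not sought, in the members or in all windows. A match describes the letters and not a bound site, and neither Gfap nor Vim was called in either response.

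The genes whose levels were most like those of the members differed from member to member. Over the 16 libraries, which share 4 conditions and 8 litters, Pearson's r was computed over 12725 genes with a mean of at least 1 CPM and a full gene name. The closest to Gfap were Synpo2 (0.979), Ugt1a6a (0.978) and Capn1 (0.972), and after subtraction of condition means Ftl1, the ferritin light chain (0.986), and Oat (0.978). The closest to Nes were Ncl (0.97), Ddx21 (0.968) and Yrdc (0.964), the first 2 of them nucleolar proteins, and after subtraction 3 subunits of the chaperonin that folds actin and tubulin, Cct8 (0.975), Cct6a (0.975) and Cct7 (0.969). The closest to Vim were Iqsec2 (0.952), Rab11fip5 (0.949) and Abi1 (0.943), and after subtraction Anxa7 (0.961), Sorl1 (0.923) and Rab11fip5 (0.92). The closest to Synm were Tafa5 (0.968), Lmbrd1 (0.962) and Gpm6b (0.948), and after subtraction Pex13 (0.959), Hps6 (0.922) and Vtn (0.917). The closest to Lmna were Il6ra (0.967), Nxph3 (0.961) and Nefm (0.954), and after subtraction Fermt2 (0.919), Il6ra (0.888) and Slc35e4 (0.887). Among the members themselves, with condition means subtracted, r was 0.78 for Gfap with Vim, 0.77 for Gfap with Synm and for Synm with Lmna, and -0.67 for Gfap with Nes. These are descriptions over libraries that are not independent.

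Other intermediate filament genes also moved in both directions with the stimulus. Of 25 listed, 15 were tested, of which 3 rose and 1 fell in WT and 3 rose and 7 fell in KO, with medians of -0.16 and -0.36. The shares of all genes that rose and fell were 24.3% and 19.8% in WT and 25.6% and 23.9% in KO. The neurofilament gene Nefh and 9 keratins were too low to be tested. Prph, which encodes peripherin, a filament protein of peripheral neurons, had the largest rise, 5.29 (SE 0.51, adjusted p = 1.5e-05) in WT and 4.26 (SE 0.50, adjusted p = 5.1e-05) in KO. It had 4 to 16 reads in WT vehicle libraries and 290 to 535 in WT LPS+IFNg libraries, and 3 to 37 and 138 to 364 in KO. Nefm, the medium neurofilament subunit, rose by 1.01 (SE 0.25) in WT and 1.26 (SE 0.25) in KO, and Iffo2 by 0.90 (SE 0.16) and 1.68 (SE 0.16). Ina, the neuronal filament alpha-internexin, was the only one called lower in WT, where it fell by 0.65 (SE 0.22), and it fell by 0.85 (SE 0.22) in KO. Lmnb1, a B-type lamin gene, was at -0.16 (SE 0.09, adjusted p = 0.187) in WT and fell by 0.57 in KO (SE 0.09, adjusted p = 0.000423). Lmnb2, also a B-type lamin gene, was at 0.15 (SE 0.08, adjusted p = 0.152) in WT and -0.10 (SE 0.08, adjusted p = 0.325) in KO. Both are named after their values were seen. The 6 neuronal markers, of which 2 rose and 2 fell in WT and 2 rose and 3 fell in KO, summed to 26.2 to 40.6 CPM in vehicle and 71.3 to 106 CPM in LPS+IFNg libraries. Tubb3 and Stmn2 among them rose by 2.69 (SE 0.16) and 1.37 (SE 0.36) in WT. Rbfox3 and Dcx fell there, by 0.91 (SE 0.24) and 0.34 (SE 0.10). The part of neurons in the rise of neuronal filament genes was not tested.

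The proteins that tie filaments to membranes or fold them moved in both directions. Of 24 linker and chaperone genes, 23 were tested, of which 7 rose and 2 fell in WT and 10 rose and 4 fell in KO, with medians of 0.00 and 0.21. Of all genes, 24.3% rose and 19.8% fell in WT, and 25.6% rose and 23.9% fell in KO. Sntb1, a syntrophin of the dystrophin complex, rose by 1.12 (SE 0.11) in WT and 1.43 (SE 0.11) in KO. Hspb8 and Bag3, partners in chaperone-assisted autophagy, rose by 0.84 (SE 0.31) and 0.57 (SE 0.11) in WT and by 1.79 (SE 0.33) and 0.74 (SE 0.11) in KO. Hspb1, a small heat shock protein, fell by 1.42 (SE 0.36) in WT, and in KO it was at -0.88 (SE 0.36, adjusted p = 0.0671). Macf1, a spectraplakin that links filament systems, fell by 0.43 (SE 0.06) in each genotype.

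Around Lmna, 25 lamin processing and nuclear envelope genes were tested, of which 11 rose and 3 fell in WT and 8 rose and 5 fell in KO, with medians of 0.01 and 0.07. The shares of all genes that rose and fell were 24.3% and 19.8% in WT and 25.6% and 23.9% in KO. Tor1aip2 and Tor1aip1, membrane cofactors of torsin, rose by 0.90 (SE 0.07) and 0.53 (SE 0.09) in WT and by 0.73 (SE 0.07) and 0.74 (SE 0.09) in KO. Lbr, the lamin B receptor, rose by 0.60 (SE 0.08) and 0.45 (SE 0.08). Narf, whose product binds prelamin A, fell by 0.61 (SE 0.16) and 0.76 (SE 0.16). Fnta, a farnesyltransferase subunit, fell by 0.14 (SE 0.05) and 0.20 (SE 0.05), and Syne1, which encodes nesprin-1, fell by 0.46 (SE 0.14) in WT and was at 0.10 (SE 0.13, adjusted p = 0.571) in KO.

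Filament disassembly is driven by phosphorylation. Of 15 kinase and phosphatase genes, 6 rose and 2 fell in WT and 8 rose and 6 fell in KO, with medians of 0.08 and 0.14. The shares of all genes that rose and fell were 24.3% and 19.8% in WT and 25.6% and 23.9% in KO. Pak1 rose by 0.74 (SE 0.08) in WT and 1.05 (SE 0.08) in KO, and Camk2d by 0.60 (SE 0.11) and 1.02 (SE 0.11), both kinases known to act on vimentin or GFAP. Prkaca, a catalytic subunit of protein kinase A, rose by 0.43 (SE 0.07) in WT and was at 0.08 (SE 0.07, adjusted p = 0.349) in KO. Prkca, protein kinase C alpha, fell by 0.72 (SE 0.06) and 0.96 (SE 0.06), and the phosphatase subunit Ppp1cb by 0.42 (SE 0.05) and 0.27 (SE 0.05).

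Of 16 regulators known to bind filament genes, 4 rose and 6 fell in WT and 5 rose and 4 fell in KO, with medians of -0.08 and -0.10. The shares of all genes that rose and fell were 24.3% and 19.8% in WT and 25.6% and 23.9% in KO. Stat3, an activator of Gfap, rose by 1.12 (SE 0.06) in WT and 1.11 (SE 0.06) in KO, and Jun by 1.35 (SE 0.11) and 1.81 (SE 0.11). Fos fell by 1.26 (SE 0.24) in WT and was at -0.41 (SE 0.24, adjusted p = 0.177) in KO. Rbpj and Hes1, of the Notch pathway, fell by 0.37 (SE 0.06) and 0.33 (SE 0.10) in WT, and in KO Rbpj was at -0.12 (SE 0.06, adjusted p = 0.134) and Hes1 fell by 0.49 (SE 0.10).

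**Figure D4:**
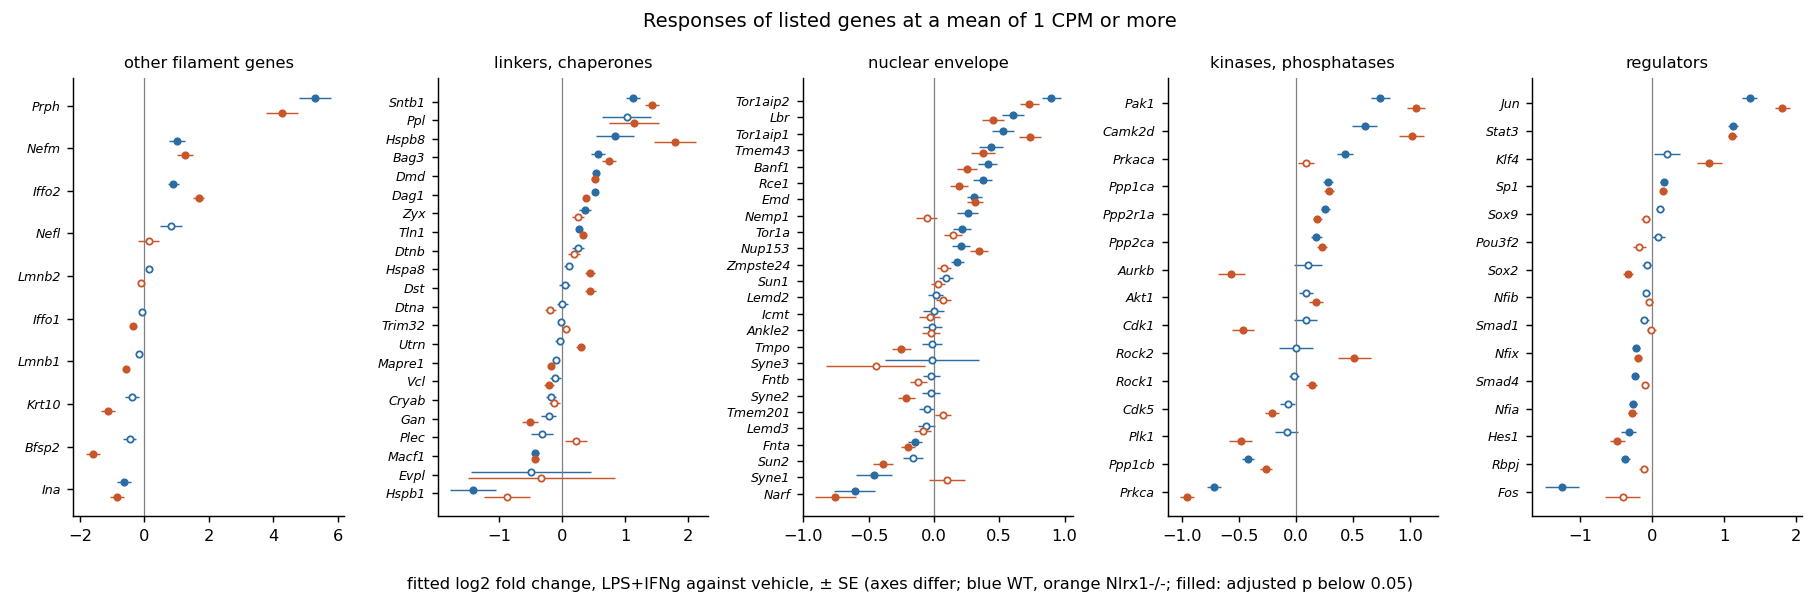
Fitted log2 fold changes ± SE for LPS+IFNg against vehicle in WT (blue) and KO (orange) of the listed genes with a mean of at least 1 CPM, filled where the adjusted p was below 0.05. Prph at 5.29 in WT is the largest value drawn, 1 regulator is not drawn, and the horizontal axes differ.

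Astrocyte markers outside the filament family moved in both directions. Of the 9, 3 rose and 4 fell in WT, with a median of -0.14, and 2 rose and 5 fell in KO, with a median of -0.70. For this and the marker counts below, the shares of all genes that rose and fell were 24.3% and 19.8% in WT. In KO they were 25.6% and 23.9%. The gap junction gene Gja1 fell by 0.97 (SE 0.12) in WT and 1.32 (SE 0.12) in KO, S100b by 0.95 (SE 0.17) and 2.09 (SE 0.19), and the water channel gene Aqp4 by 0.84 (SE 0.10) and 1.28 (SE 0.10). Aldh1l1 rose by 0.59 (SE 0.05) and 0.35 (SE 0.05), and the glutamate transporter gene Slc1a3 by 0.24 (SE 0.04) and 0.14 (SE 0.04). Aldoc rose by 0.30 (SE 0.10) in WT and was at -0.20 (SE 0.10, adjusted p = 0.114) in KO. In LPS+IFNg, 3 of the 9 were called lower in KO than in WT, beside 2.26% of all genes. These were S100b, Aldoc and Gja1, with adjusted p of 0.0451, 0.0463 and 0.0477 by the edgeR test, close to the threshold. At most 2 of all genes were called lower there without KO litter 4, WT litter 2, WT litter 3 or WT litter 4. The 3 marker calls were therefore not all kept when any of these litters was left out. Of the 8 oligodendrocyte lineage markers, 5 fell in WT and 6 in KO. Of the 5 proliferation markers, 1 rose and 1 fell in WT and 3 fell in KO, where their sum was 807 to 1451 CPM in LPS+IFNg and 1335 to 1718 in vehicle. Of 5 fibroblast and meningeal markers 2 fell in WT and 3 in KO, and of 3 ependymal markers tested 2 fell in each genotype. Of 3 endothelial and mural markers tested, 1 fell in WT and 2 rose in KO, and Pecam1, Cldn5 and Cdh5, which define endothelium, had been left out of the deposited table as low. The part of these cell types in the members' changes was not tested.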

How the data were processed

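Members and lists were chosen with earlier results of these data known. The authors quantified poly-A, unstranded paired-end reads with Salmon 1.7.0 against the GRCm39 transcriptome and deposited expected counts and TPM for each transcript. They also deposited a CPM table, whose values are a signal scaled by TMM-adjusted library sizes, and its log2 values. Per gene, the expected counts of 106440 of 129698 transcripts, those whose accession had a symbol, were added (96.7% to 97.3% of reads) and rounded to whole numbers. The members' sums were 92.6% to 108.3% of those behind the deposited CPM. Depth was 27259420 to 43752903 read pairs a library.

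Counts were fitted with edgeR 4.0.16 (R 4.3.3) by the quasi-likelihood test with TMM, length offsets and filterByExpr (minimum count 10, group size 4), which left 16066 genes. Responses and their difference had litter terms, after the study's model. KO was compared with WT in the 4 conditions without litter terms, so the wells of a litter were treated as independent there. P-values were adjusted by Benjamini-Hochberg over all genes, with 0.05 as threshold. Litters came from the labels, which state that both wells of a replicate came from the same mice, and deviations of such wells correlated at 0.06 to 0.32, above 0.1 in 7 of 8 litters (other litters: median -0.04). Shares of TPM were compared by exact permutation tests in scipy. The authors listed their genes with DESeq2 and also ran limma. Alternatives were DESeq2 1.42.0, limma 3.58.1 on counts or deposited log2 values, other scaling, filters and offsets, and each litter left out. The fit was tested on simulated data. Named genes were the members, Nlrx1, per list the 3 called genes with the largest rise and fall in WT, and per member the 3 with the highest r. Other genes are named as such, and a few genes and sequences that these rules would give are not reported here. Reads shared between overlapping genes cannot be told apart without strand.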

Additional observations from a re-analysis of the deposited data

Results flagged for a closer look

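Of 30 groups of 4 values checked, which were the members' levels in each condition and their responses in each genotype, 1 stood out by Dixon's test. The Nes response of WT litter 4, -0.06 on the log2 CPM scale, lay apart from those of the other 3 WT litters, which were 0.40 to 0.42, with a gap of 0.956 of the whole range, above the critical value at the 95% level. Chance gives a gap above that critical value in about 1 in 20 groups. Without that litter the WT response of Nes was 0.40 and was called.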

How the results depend on the processing

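The 5 members were tested in every fit. Of 395 alternative values of a member's fold change, 373 kept their direction and their side of the threshold, 13 were called only in the alternative, 1 lost its call and 8 changed sign. Lmna and Synm kept both response calls under every alternative. Nes in WT was called under DESeq2, without length offsets, without a filter on low counts and without WT litter 4, KO litter 3 or KO litter 4. Against 0 members called between genotypes in vehicle, DESeq2 called 1 (Vim), and leaving out a litter gave 0 to 2, and in LPS+IFNg 0 to 3. The changes of sign were of values near 0 that were not called: Gfap in KO without litter terms (no replicate block, -0.13) and without KO litter 2 (-0.18) (0.37 without KO litter 3). With litters left out, the Lmna difference of responses ranged from -0.014 to 0.32. With litters left out, Lmna between genotypes ranged from -0.32 to 0.015 in vehicle, above 0 without KO litter 4, and from -0.0894 to 0.0900 in LPS+IFNg, above 0 without KO litter 4, WT litter 2 or WT litter 3. With limma on the deposited log2 CPM the latter was 0.019. Among shares, that of Vim in LPS+IFNg was -0.895 percentage points by counts (2.71 by TPM). The Lmna transcript shares changed sign when a litter was left out: that of 3189 bases ranged from -5.82 to 0.0452 in vehicle and that of 2086 bases from -1.03 to 2.01 in LPS+IFNg.

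The replicate block, that is the litter term, changed 1 call: without it Nes in KO was 0.58 with an adjusted p of 0.054. Sharing the replicate number between genotypes, which the labels do not tie to a shared litter, gave 0 members called in either condition. The spread between litters gave Gfap an SE of 0.53 between genotypes, and Synm rested on the fewest reads of the members. The cause of these shifts was not tested.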
